A study of Mus musculus with 12 samples.

Results

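The genes described here were those of oxidative phosphorylation that are encoded in the nucleus. They were taken by symbol alone: Nduf followed by a, b, c, s or v and a number, Sdha to Sdhd, symbols that begin with Uqcr, with Cox and a number from 4 to 8, or with Atp5. The rule took 85 of the 23337 symbols in the count files, and no pseudogene symbol had to be left out. Of these, 35 belonged to complex I, 4 to complex II, 8 to complex III, 21 to complex IV and 17 to complex V, with Ndufa4 and Ndufa4l2 placed in complex IV. The filter on low counts kept 78 of the 85, among 12038 genes tested. The rule also took 3 symbols that are not subunits: Cox4nb (now Emc8), part of a membrane insertion complex of the endoplasmic reticulum (ER), and Atp5s and Atp5sl, which are now known under other names. Cox7a2l joins complexes into supercomplexes rather than being a fixed subunit. Subunits encoded by mitochondrial DNA were not analysed here.

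The libraries hold RNA of regulatory T cells (Treg), the T cells that carry the factor Foxp3 and restrain immune responses, of C57BL/6 mice aged 8 weeks. Natural Treg (nTreg) were CD4+GFP+ cells sorted directly from the spleen and lymph nodes, and induced Treg (iTreg) were GFP-positive cells isolated after CD4 T cells had been cultured with IL2 and TGFbeta for 5 days. Animals labelled WT had the genotype Hrd1 +/flox, FoxP3-cre+-GFP, and animals labelled KO had Hrd1 flox/flox, FoxP3-cre+-GFP, with 3 libraries of each label for each cell type, 12 in all. Hrd1, whose gene symbol is Syvn1, is an ER ubiquitin ligase that marks misfolded proteins for degradation. All 4 groups carried the Cre recombinase driven by FoxP3, so that cells with the WT label may have lost a copy of Hrd1, and no group without a floxed allele was included. The comparison of iTreg with nTreg sets cells after culture beside cells taken directly from the animal, so cell type and culture cannot be told apart. Whether the 3 libraries of a group came from different mice is not stated, and p-values here reflect only how much these libraries vary.

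Oxidative phosphorylation makes ATP in the inner mitochondrial membrane. Complexes I and II pass electrons from NADH and succinate to coenzyme Q, complex III passes them on to cytochrome c, and complex IV, cytochrome c oxidase, hands them to oxygen; I, III and IV pump protons as they do so, and complex V, the ATP synthase, lets the protons flow back to make ATP. Treg are known to rely on mitochondrial respiration more than freshly activated conventional T cells do. The mitochondrial genome encodes core membrane subunits of complexes I, III, IV and V, while the nucleus encodes the remaining core subunits, the many small accessory subunits and all of complex II.

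Total counts ranged from 6763458 to 15462894 per library. The targeted gene was not lower with the KO label in nTreg: Syvn1 was at 137 CPM (read counts scaled to a common library total) on average in KO-labelled and 78.7 CPM in WT-labelled nTreg (log2 fold change 0.80, adjusted p = 0.023, edgeR), and at 63.6 against 78.3 CPM in iTreg (log2 fold change -0.30, adjusted p = 0.75, edgeR). A count over all exons includes those outside the floxed stretch and does not check the label, so directions are those of libraries labelled KO. Summed T cell and Treg markers (7 of 7 found) were at 4029 to 5359 CPM in the 12 libraries, but the single markers differed in opposite directions. With the WT label, Il2ra averaged 838 CPM in nTreg and 3138 CPM in iTreg. Ikzf2 was at 1091 and 25.5 CPM and Foxp3 at 621 and 358 CPM, and Cd3d, Cd3e, Cd4 and Ctla4 were lower in iTreg as well. Summed markers of B cells (5 of 5) were at 12.7 to 18.3 CPM in nTreg and 0.422 to 2.94 CPM in iTreg, and those of myeloid cells (8 of 9) at 32.0 to 272 CPM in nTreg and 3.65 to 6.02 CPM in iTreg, highest in the nTreg libraries numbered 2. Those of NK cells (3 of 3) were at 2.39 to 6.50 CPM in nTreg and 20.9 to 54.9 CPM in iTreg. The higher sum in iTreg came from Klrd1 alone, at 0.306 CPM on average in WT-labelled nTreg and 38.5 CPM in WT-labelled iTreg. Klrb1c was lower in iTreg, at 4.24 and 0.055 CPM in the same groups, and Ncr1 had no read in iTreg. CD8 markers (2 of 2) were at 8.42 to 21.3 CPM. With the WT label, Cd8a averaged 1.07 CPM in nTreg and 8.61 CPM in iTreg, and Cd8b1 12.75 and 7.59 CPM. Plasma cell markers (2 of 4) were at 1.1 to 28.1 CPM and platelet markers (3 of 3) at 1.72 to 4.41 CPM. Erythroid markers (3 of 5) were at up to 3.53 CPM in nTreg and at 0 in iTreg, and Hba-a1 and Hba-a2 had no read in any library. The part of other cells in the results below was not tested beyond the fits without single libraries. Nearly all reads of Xist, which coats the silenced X chromosome, were in nTreg WT replicate 3, nTreg KO replicate 3 and iTreg WT replicate 2. For the members themselves, iTreg KO replicate 2 stood apart: its median deviation over the 78 tested members from each member's mean over the 12 libraries was 0.73 on the log2 scale, against 0.26 to 0.38 in the other 5 iTreg libraries.

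Members of every complex were expressed in all 4 groups. Levels compared between genes are CPM per kb of exon length, taken from the union of a gene's exons. In WT-labelled nTreg, the ATP synthase subunit Atp5b, which holds the catalytic sites of the F1 head, had the highest level of all members, at 368 ± 41.9 CPM per kb (SD, n = 3). Next came Cox4i1, the regulatory subunit IV of cytochrome c oxidase, at 256 ± 34.0 CPM per kb, Uqcrh, the hinge protein of complex III, at 242 ± 20.3 CPM per kb, and Atp5a1, which forms the F1 head with Atp5b, at 240 ± 15.9 CPM per kb. These last 3 did not differ beyond their spread. In WT-labelled iTreg, Atp5b was again highest, at 785 ± 93.0 CPM per kb, followed by Atp5g3, a gene of the membrane c-ring, at 477 ± 53.4 CPM per kb, Cox4i1 at 455 ± 5.60 CPM per kb, Uqcrh at 395 ± 23.7 CPM per kb and Atp5a1 at 393 ± 61.8 CPM per kb. Atp5g3 and Cox4i1 did not differ beyond their spread, nor did Uqcrh and Atp5a1, while Cox4i1 lay above Uqcrh by more than the SD of both. In KO-labelled iTreg the same 5 genes were highest, with Cox4i1 at 479 ± 76.7 CPM per kb and Atp5g3 at 467 ± 52.8 CPM per kb, within the spread of both.

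The first comparison asked how nTreg and iTreg differ at the same label. In WT-labelled cells, 66 of the 78 tested members were higher in iTreg and 1 was lower, beside 34.8% of all genes tested that were higher and 30.4% that were lower. The median log2 fold change of the tested members was 0.85 (1.8-fold), and that of all genes tested was 0.05. In KO-labelled cells, 66 of 78 were higher and 0 lower, beside 32.1% and 29.8% of all genes, with a median of 0.74 (1.68-fold) against 0.01 for all genes. Both labels called 64 members higher. Cox6b2 and Ndufa6 passed with the WT label alone, and Ndufb4 and Ndufs7 with the KO label alone. The 64 include Cox7a1, which passed the filter on low counts through its iTreg libraries alone, so its call is not independent of the filter. A call is an adjusted p under 0.05 by edgeR (quasi-likelihood test, Benjamini-Hochberg over all genes tested), with n = 3 libraries per group. By library, 70 members lay higher in each of 3 WT-labelled iTreg than in each of 3 nTreg libraries and 2 lower (37.4% and 33.9% of all genes), and with the KO label 65 lay higher and 1 lower (34.1% and 32.8%). In bulk RNA, a change in the share of cells that express a gene and a change in the RNA per cell cannot be told apart.

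**Figure D1:**
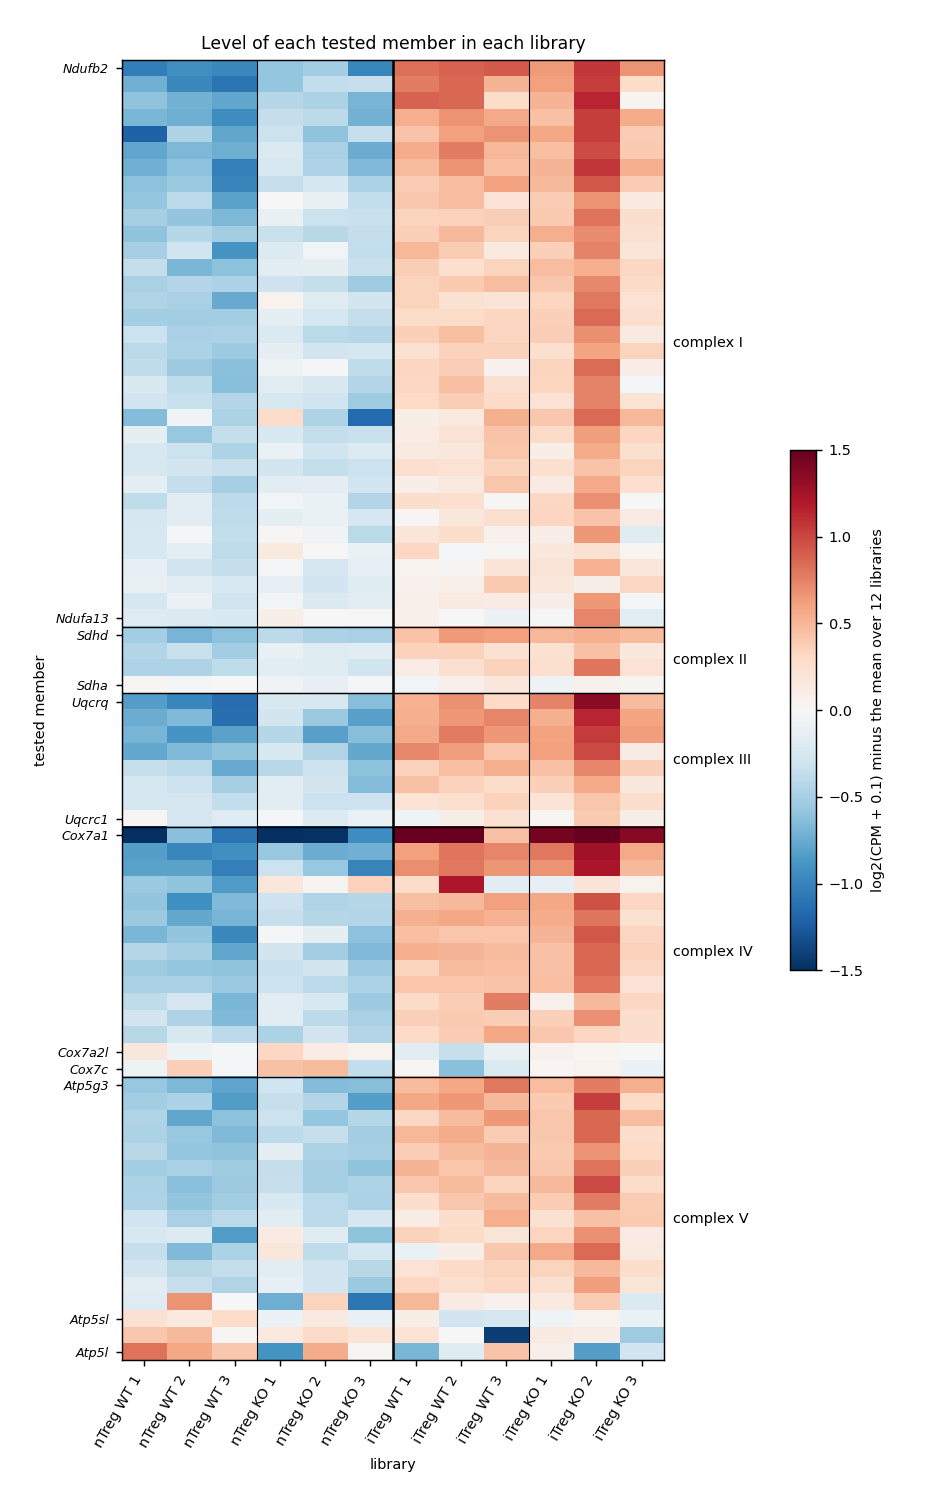
Level of the 78 tested members (rows, grouped by complex and ordered by their difference between iTreg and nTreg in WT-labelled cells) in the 12 libraries (columns), as log2(CPM + 0.1) minus the member's mean over the libraries, with blue below and red above the mean and names at the top and bottom row of each complex and at Cox7a2l and Atp5sl. The 6 iTreg columns are mostly red and the 6 nTreg columns mostly blue, iTreg KO 2 is the darkest red column, and Sdha, Cox7a2l and Atp5sl are among the rows without this pattern.

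The tested members had a median exon length of 1011 bp, against 3266 bp for all genes tested, with a median GC content of 50.2% against 49.7%. With a correction for exon length and GC content, fitted together with a block for the replicate number, the median of the tested members fell from 0.85 to 0.49 with the WT label (54 higher and 5 lower, beside 31.7% and 34.7% of genes) and from 0.74 to 0.46 with the KO label (53 higher and 1 lower, beside 31.4% and 31.4%). The medians of all genes in these fits were -0.05 and -0.0007. Replicate numbers showed no pairing across cell types, so the block has no basis in comparisons of iTreg with nTreg. With the block alone the medians of the tested members were 0.85 and 0.74. The correction was not fitted without the block, which holds for all its values for iTreg against nTreg below.

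Summed over all 85 members, WT-labelled nTreg libraries held 6515, 6016 and 5878 CPM and WT-labelled iTreg libraries 10410, 10980 and 11430 CPM, 1.78-fold more. With the KO label the sums were 7320, 6570 and 6415 CPM in nTreg and 10700, 13660 and 10420 CPM in iTreg, 1.71-fold more. No iTreg library overlapped any nTreg library. By complex, the ratio of iTreg to nTreg with the WT label was 1.68 for complex I, 1.39 for complex II, 1.77 for complex III, 1.96 for complex IV and 1.87 for complex V.

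**Figure D2:**
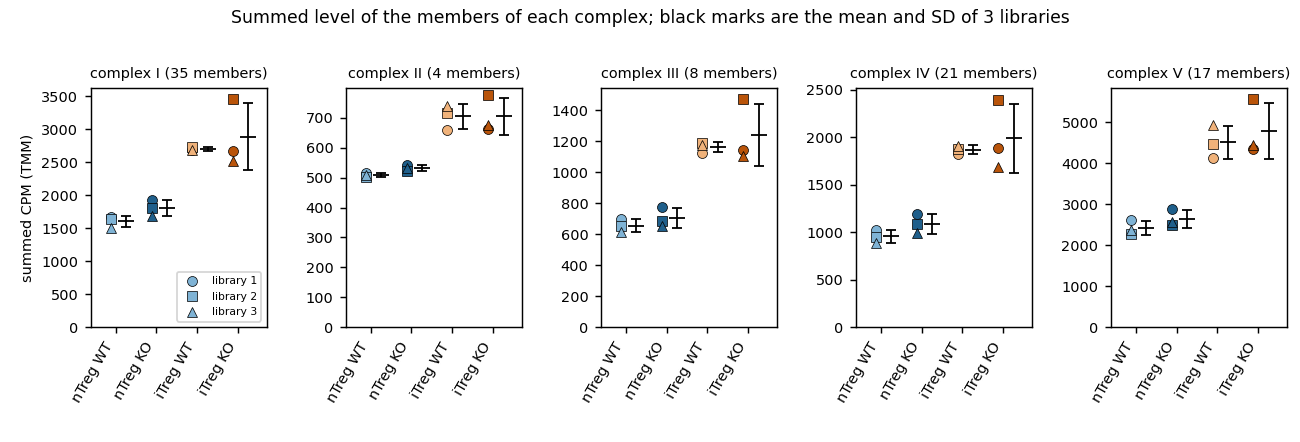
Summed CPM of the members of each complex (y axis, TMM-normalised, from 0) in each library of the 4 groups, with markers by library number and black marks for the mean ± SD of 3 libraries. In each complex all iTreg libraries lie above all nTreg libraries, and iTreg KO library 2 lies above the other 5 iTreg libraries.

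Complex I oxidises NADH. With the WT label 30 of its 34 tested members were higher in iTreg, none was lower, and the median log2 fold change was 0.79; with the KO label 31 were higher, with a median of 0.65. Ndufb2, an accessory subunit of the membrane arm, differed most. Its levels were 13.7, 14.8 and 14.4 CPM in WT-labelled nTreg and 50.2, 52.1 and 53.6 CPM in WT-labelled iTreg. The groups did not overlap, and the log2 fold change was 1.86 (3.62-fold, SE 0.15, adjusted p = 8.2e-07, edgeR). With the KO label Ndufb2 was at 18.8, 19.7 and 14.2 CPM in nTreg and 43.8, 58.7 and 45 CPM in iTreg, again apart (log2 fold change 1.48, SE 0.15, adjusted p = 5.3e-06, edgeR). The accessory subunits Ndufc1 (log2 fold change 1.65, SE 0.20, adjusted p = 1.9e-05) and Ndufb8 (1.38, SE 0.16, adjusted p = 1.0e-05) were higher as well. Ndufb11, an accessory subunit encoded on the X chromosome, was higher by 0.87 (SE 0.11, adjusted p = 2.2e-05).

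The 7 core subunits of complex I, which carry the flavin and the iron-sulfur clusters of the peripheral arm, differed less than the 27 accessory ones. Their median log2 fold change was 0.55 with the WT label and 0.51 with the KO label, against 0.82 and 0.76 for the accessory subunits; with the block and the correction for length and GC these were 0.22 and 0.30 for the core and 0.42 and 0.42 for the accessory subunits. The gap itself was not tested. Ndufs1, the largest iron-sulfur subunit, was at 110.0, 105.5 and 101.2 CPM in WT-labelled nTreg and 123.9, 124.5 and 155.9 CPM in iTreg. These groups did not overlap, but the difference was small (log2 fold change 0.35, SE 0.11, adjusted p = 0.012, edgeR) and was not called with the correction for length and GC (adjusted p = 0.20). Ndufv1, which binds the flavin, was higher by 0.59 (SE 0.13, adjusted p = 0.0015), Ndufv2 by 0.86 (SE 0.11, adjusted p = 3.9e-05) and Ndufs8 by 0.55 (SE 0.14, adjusted p = 0.0039). The call of Ndufs8 ended with the correction for length and GC (adjusted p = 0.18). Ndufs7, which holds the last cluster before coenzyme Q, had a log2 fold change of 0.33 (SE 0.15, adjusted p = 0.078) with the WT label and was higher by 0.41 (SE 0.15, adjusted p = 0.032) with the KO label, a call that ended with the correction for length and GC (adjusted p = 0.41). Ndufa13 had the smallest difference with the WT label, 0.21 (SE 0.18, adjusted p = 0.32, edgeR), and Ndufa6 with the KO label, 0.13 (SE 0.11, adjusted p = 0.34, edgeR).

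Complex II, succinate dehydrogenase, is also an enzyme of the TCA cycle, and its 4 subunits did not move alike. Sdha, the flavoprotein that oxidises succinate, was at 294.4, 285.0 and 289.6 CPM in WT-labelled nTreg and 282.1, 306.2 and 328.6 CPM in iTreg. These groups overlapped, and the log2 fold change was 0.08 (SE 0.09, adjusted p = 0.46, edgeR) with the WT label and likewise 0.08 (SE 0.09, adjusted p = 0.47) with the KO label. The iron-sulfur subunit Sdhb and both membrane anchors were higher. Sdhd, an anchor, had the smallest p of all members with either label. It was at 74.2, 65.1 and 68.6 CPM in WT-labelled nTreg and 142.1, 164.2 and 161.0 CPM in iTreg, well apart (log2 fold change 1.17, SE 0.09, adjusted p = 4.5e-07, edgeR; 0.95, SE 0.09, adjusted p = 2.7e-06 with the KO label). Sdhc, the other anchor, was higher by 0.74 (SE 0.10, adjusted p = 3.2e-05) and 0.43 (SE 0.10, adjusted p = 0.0019) with the WT and KO label, and Sdhb by 0.67 (SE 0.14, adjusted p = 0.0014) and 0.67 (SE 0.14, adjusted p = 0.0015).

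Complex III, the cytochrome bc1 complex, was higher in 7 of 8 members with either label, with medians of 1.11 and 1.03. The member outside the calls was Uqcrc1, a core protein of the matrix side. It was at 188.4, 156.3 and 162.8 CPM in WT-labelled nTreg and 178.0, 199.3 and 218.6 CPM in iTreg, with overlap (log2 fold change 0.23, SE 0.12, adjusted p = 0.12, edgeR). Its partner Uqcrc2 was higher by 0.55 (SE 0.09, adjusted p = 2.6e-04), but not with the correction for length and GC (0.20, adjusted p = 0.094; with the KO label 0.031). Uqcrfs1, the Rieske iron-sulfur protein that carries electrons towards cytochrome c1, was at 88.4, 77.8 and 82.7 CPM in WT-labelled nTreg and 213.6, 246.5 and 226.8 CPM in iTreg. The groups lay far apart (log2 fold change 1.47, SE 0.14, adjusted p = 2.7e-06, edgeR). The small subunits Uqcrq and Uqcr10 were higher by 1.49 (SE 0.21, adjusted p = 6.2e-05) and 1.48 (SE 0.19, adjusted p = 2.8e-05).

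Complex IV was higher in 13 of 15 tested members with the WT label and 12 of 15 with the KO label, with medians of 1.07 and 0.91. These counts include Cox7a1, whose call is not independent of the filter on low counts. Cox5a, a subunit on the matrix side, was at 75, 67.5 and 70.3 CPM in WT-labelled nTreg and 204.4, 232.8 and 220.8 CPM in iTreg. The groups did not overlap (log2 fold change 1.63, 3.09-fold, SE 0.15, adjusted p = 2.3e-06, edgeR), nor did they with the KO label (1.58, SE 0.15, adjusted p = 3.7e-06). Cox5b, which binds zinc, was higher by 0.99 (SE 0.14, adjusted p = 5.6e-05) with the WT label and Cox4i1 by 0.83 (SE 0.14, adjusted p = 2.0e-04). The common forms of the small subunits that have tissue-specific paralogs followed: Cox7a2 was higher by 1.60 (SE 0.20, adjusted p = 2.2e-05), Cox6a1 by 1.23 (SE 0.15, adjusted p = 1.8e-05) and Cox8a by 1.22 (SE 0.13, adjusted p = 5.3e-06). Ndufa4, named for complex I and known as a part of complex IV, was higher by 0.92 (SE 0.17, adjusted p = 4.1e-04) with the WT label and by 0.61 (SE 0.17, adjusted p = 0.0068) with the KO label, the latter not called with the correction for length and GC (adjusted p = 0.57). Cox4nb, the ER protein with a Cox symbol, was higher as well, by 0.77 (SE 0.11, adjusted p = 6.3e-05). The supercomplex factor Cox7a2l was the abundant exception. It was at 162.4, 136.9 and 142.4 CPM in WT-labelled nTreg and 129.8, 113.7 and 133.9 CPM in iTreg, all iTreg libraries below all nTreg libraries. The log2 fold change was -0.23 (SE 0.10, adjusted p = 0.071, edgeR), which is not a call. Its adjusted p was 0.049 with the replicate number as a block. With the block and the correction for length and GC it was 7.1e-05 (log2 fold change -0.63). Replicate numbers showed no pairing across cell types, so the block is no basis for a call of Cox7a2l. With the KO label its log2 fold change was -0.13 (SE 0.10, adjusted p = 0.30). Cox7c, a small subunit with near-identical copies in the genome, had the lowest value of complex IV with either label, -0.36 (adjusted p = 0.34) and -0.25 (edgeR; not passed).

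Complex V was higher in 13 of 17 tested members with either label, with medians of 0.71 and 0.70. Atp5b was at 786.1, 625.7 and 701.1 CPM in WT-labelled nTreg and 1330, 1498 and 1686 CPM in iTreg, with no overlap (log2 fold change 1.10, SE 0.14, adjusted p = 3.5e-05, edgeR). Atp5a1 and Atp5c1, the latter the rotating central stalk, were higher by 0.71 (SE 0.12, adjusted p = 2.9e-04) and 0.63 (SE 0.10, adjusted p = 1.5e-04). Atp5g3 had the largest difference of complex V with the WT label. It was at 151.6, 140.0 and 129.3 CPM in nTreg and 312.3, 336.3 and 387.9 CPM in iTreg, well apart (log2 fold change 1.30, SE 0.13, adjusted p = 4.8e-06, edgeR). Atp5j, of the peripheral stalk, was higher by 0.98 (SE 0.12, adjusted p = 2.3e-05). Atp5l, a small membrane subunit with near-identical copies in the genome, had the lowest value of complex V, -0.72 (SE 0.46, adjusted p = 0.18, edgeR). Atp5sl, which is no subunit, was the 1 member called lower in WT-labelled iTreg: it was at 55.2, 52.0 and 57.3 CPM in nTreg and 50.2, 38.7 and 39.3 CPM in iTreg (log2 fold change -0.36, SE 0.12, adjusted p = 0.019, edgeR). That call was lost without nTreg WT replicate 3, iTreg WT replicate 2 or iTreg WT replicate 3 (adjusted p of up to 0.079 over the fits without single libraries), and with the KO label the log2 fold change was -0.02 (SE 0.12, adjusted p = 0.88). Without the 3 symbols that are not subunits, 65 of 75 tested members were higher and 0 lower with either label.

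**Figure D3:**
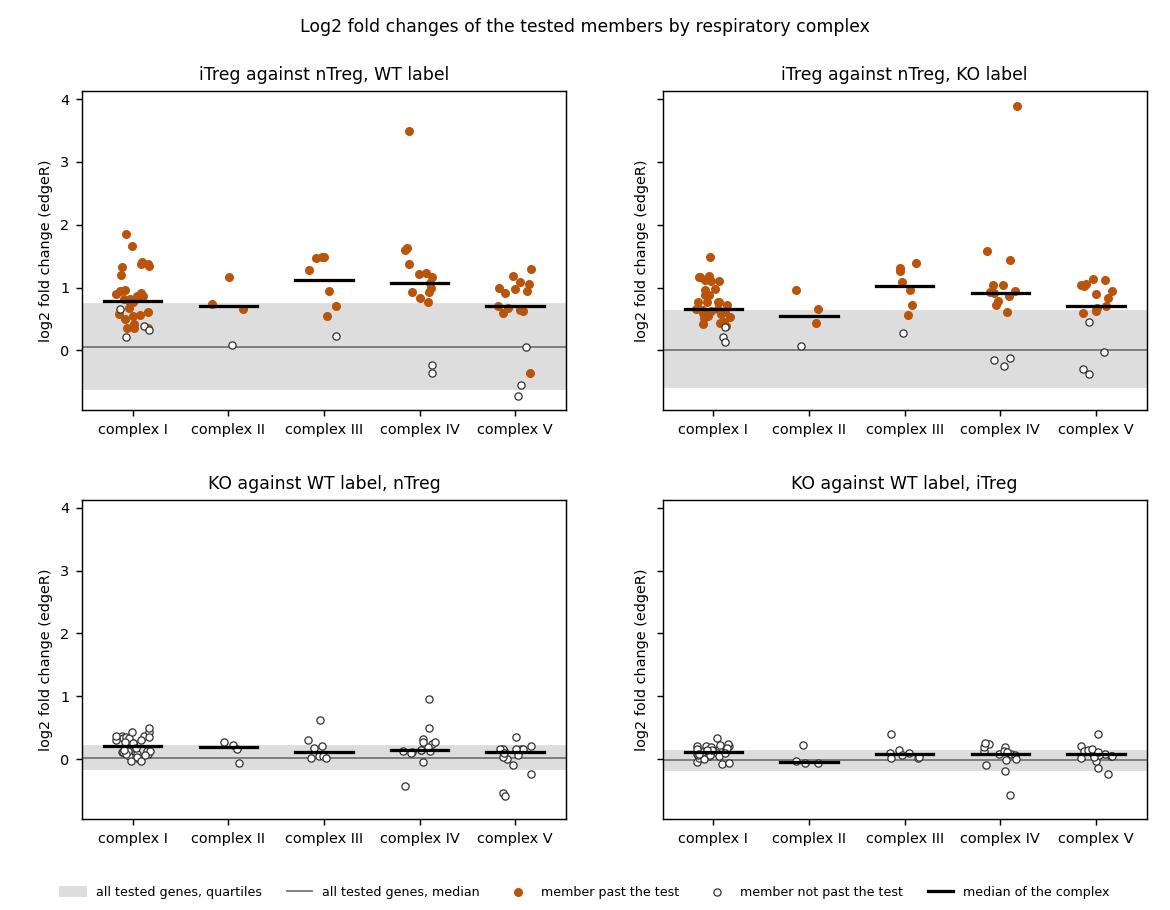
Log2 fold change of each tested member (points; filled where the adjusted p was under 0.05 by edgeR) by complex in 4 comparisons, with a black line at the median of the complex and a grey line and band at the median and quartiles of all 12038 genes. The members lie mostly above the grey band in both comparisons of iTreg with nTreg and are all unfilled in both comparisons of KO with WT label, where Cox7a1 is the high point of complex IV in the upper panels.

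Promoter letters were looked at because many members were high in the same libraries. NRF1 is a factor known to bind promoters of respiratory chain genes. The 250 bases before the start of 64 of the 78 tested members were matched in a RefSeq table (GRCm38.p6), and of 9476 of all genes tested. The letters GCATGCG, the centre of the NRF1 site, stood on either strand in 9 of 64 member promoters (14.1%) and in 5.81% of all. ETS letters (CCGGAAG) stood in 18.8% and 15%, YY1 letters (AAGATGG) in 1.56% and 4.51%, and SP1 letters (GGGCGG) in 31.2% and 60.5%. A promoter counted once per factor; the NRF1 letters overlap their own reverse complement, and the ETS and YY1 letters can overlap. A match describes letters, not binding. Below, each complex with a member that holds the NRF1 letters is shown by the one with the largest difference between iTreg and nTreg, as 250 bases 5′ to 3′ up to the base before the start, with the NRF1 letters of both strands in capitals. Ndufa11 is at chr17:56717512-56717761 (plus strand), Sdhb at chr4:140961021-140961270 (plus strand), Cox6a1 at chr5:115348959-115349208 (minus strand) and Atp5k at chr5:108434400-108434649 (minus strand). The letters began 59, 54, 161 and 49 bases before the start, in this order.
Ndufa11: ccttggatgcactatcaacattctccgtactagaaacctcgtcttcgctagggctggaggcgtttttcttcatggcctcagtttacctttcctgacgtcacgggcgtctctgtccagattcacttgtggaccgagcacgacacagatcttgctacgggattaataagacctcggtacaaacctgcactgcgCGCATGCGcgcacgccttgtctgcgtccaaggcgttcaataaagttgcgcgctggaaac
Sdhb: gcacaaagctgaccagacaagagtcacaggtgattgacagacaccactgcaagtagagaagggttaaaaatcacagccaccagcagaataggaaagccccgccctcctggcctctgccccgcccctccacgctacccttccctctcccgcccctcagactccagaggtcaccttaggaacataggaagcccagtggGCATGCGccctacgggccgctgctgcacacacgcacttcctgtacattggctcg
Cox6a1: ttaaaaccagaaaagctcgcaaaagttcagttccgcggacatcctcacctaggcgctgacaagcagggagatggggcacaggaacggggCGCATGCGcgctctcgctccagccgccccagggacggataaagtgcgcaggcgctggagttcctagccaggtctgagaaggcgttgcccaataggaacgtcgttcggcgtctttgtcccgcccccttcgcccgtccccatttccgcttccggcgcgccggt
Atp5k: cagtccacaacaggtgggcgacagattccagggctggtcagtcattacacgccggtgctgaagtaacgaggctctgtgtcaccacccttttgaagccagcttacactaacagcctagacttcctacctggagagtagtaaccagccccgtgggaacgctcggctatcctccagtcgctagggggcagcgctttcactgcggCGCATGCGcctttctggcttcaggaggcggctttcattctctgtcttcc

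These 4 members were picked by their difference, so that all of them being higher in iTreg says nothing about the letters. The other members with NRF1 letters were not alike. Atp5j and Ndufa8 were called higher in iTreg with either label and Ndufa6 with the WT label alone, while Atp5g2 and Atp5l were not called higher. Ndufa11, an accessory subunit of complex I, was at 31.2, 29.3 and 27.6 CPM in WT-labelled nTreg and 55.6, 56.2 and 56.7 CPM in iTreg (log2 fold change 0.94, SE 0.14, adjusted p = 8.5e-05, edgeR). Sdhb was at 84.9, 85.2 and 90.2 CPM in nTreg and 126.3, 138.0 and 148.8 CPM in iTreg. Cox6a1, the common form of a small subunit of cytochrome c oxidase, was at 84, 66.9 and 80.2 CPM in nTreg and 172.6, 177.0 and 193.4 CPM in iTreg. Atp5k, a small membrane subunit of ATP synthase, was at 30.0, 31.0 and 24 CPM in nTreg and 64.5, 67.9 and 60.6 CPM in iTreg (log2 fold change 1.19, SE 0.20, adjusted p = 2.1e-04, edgeR). None of the groups overlapped in these 4 genes. The mRNA of Nrf1 itself was at 79.0 CPM on average in WT-labelled nTreg and 77.6 CPM in iTreg (log2 fold change -0.03, adjusted p = 0.86, edgeR).

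Tissue-restricted paralogs of complex IV were rare next to their common forms. Cox7a1, the heart and muscle form of subunit VIIa, had 0, 3 and 3 reads in nTreg with the WT label and again 0, 3 and 3 with the KO label. In iTreg it had 47, 52 and 11 reads with the WT label and 20, 41 and 25 with the KO label. All iTreg libraries were above all nTreg libraries, with log2 fold changes of 3.49 (SE 0.82, adjusted p = 0.0025, edgeR) and 3.90 (SE 0.82, adjusted p = 0.0014). Cox7a1 passed the filter on low counts through its iTreg libraries alone, so these tests are not independent of the filter and describe the counts only. Its iTreg level of 2.81 ± 1.58 CPM (SD, n = 3, WT label) compares with 136 ± 6.25 CPM for Cox7a2. As a share of the reads of both genes, Cox7a1 made up 0.753% to 2.66% in iTreg libraries and at most 0.890% in nTreg libraries. The 95% exact binomial (Clopper-Pearson) interval of iTreg WT replicate 3, the lowest of iTreg (0.377% to 1.34%), overlapped those of nTreg. Such intervals and the floors below cover counting error only.

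Cox4i2, the oxygen-regulated form of subunit IV, had no read in any of the 6 nTreg libraries. In iTreg it had 10, 39 and 0 reads with the WT label and 11, 9 and 1 with the KO label, and it was not tested. Pooled by group, this was 1.30 and 0.664 CPM, at least 10.7-fold and 7.47-fold higher than the floor of 3 counts over the nTreg group (0.122 and 0.0888 CPM). iTreg WT replicate 2, a library with Xist reads, held most of the WT-labelled reads. Cox6a2, the muscle form of subunit VIa, had 14 reads in nTreg KO replicate 2, 1 in nTreg KO replicate 3 and 0 in the other 4 nTreg libraries. In iTreg it had 0, 0 and 1 reads with the WT label and 10, 8 and 12 with the KO label, apart by library but without a test, since it did not pass the filter. Cox6b2, the testis form of subunit VIb, had 4 to 15 reads in nTreg and 8 to 30 in iTreg, and its higher call in WT-labelled iTreg (log2 fold change 1.38, SE 0.46, adjusted p = 0.020) was lost in 2 of the 12 fits without a library and with the block and the correction for length and GC (adjusted p = 0.10). Cox7b2, Cox8b and Cox8c had no read in any library, and Ndufa4l2, which replaces Ndufa4 under low oxygen in some cells, had 0 to 4 reads. Among the 3 genes of the c-ring, Atp5g3 held 94.3% to 94.9% of reads in nTreg and 95.4% to 96.9% in iTreg, so that the library values of the cell types did not overlap. Their 95% exact binomial intervals did in part, as for iTreg KO replicate 1 (94.6% to 96.1%) and nTreg WT replicate 1 (93.4% to 96.2%). The other 2 c-ring genes, Atp5g1 and Atp5g2, have near-identical copies, so these shares are uncertain.

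**Figure D4:**
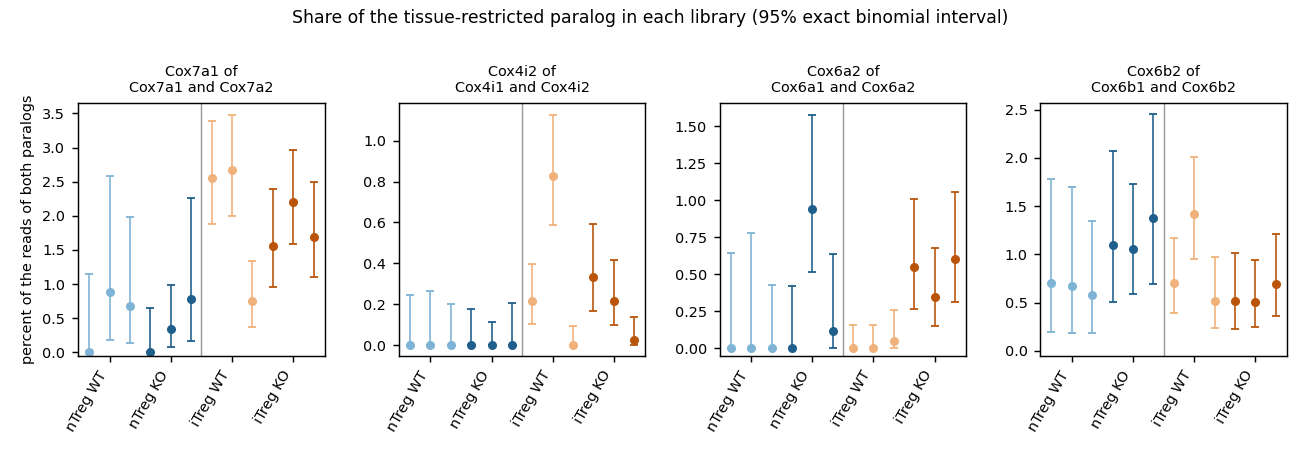
Reads of the tissue-restricted paralog as a percent of the reads of both paralogs (y axis) in each of the 12 libraries, 3 per group from left to right, with 95% exact binomial intervals. Cox7a1 and Cox4i2 are higher in most iTreg libraries than in nTreg, Cox6a2 is at 0.343% to 0.604% in the 3 iTreg KO libraries and 0.943% in nTreg KO 2, and Cox6b2 is at 0.51% to 1.41% in the 12 libraries.

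Several members have near-identical copies elsewhere in the genome. Of the subunits, 21 had at least 1 other transcript that matched more than 50% of the coding sequence at 95% identity or more. The matching transcripts were mostly of genes annotated as pseudogenes. How the deposited counts treated reads that match several places is not given in the sources used here. Over the 12 libraries, 6 of these 21 were under 10 CPM per kb, against 1 of the 53 others when the 8 tissue-restricted paralogs are left out, with medians of 58.6 and 98.6 CPM per kb. With those paralogs, none of which has such a copy, 9 of 61 without a copy were under 10 CPM per kb. Ndufs5, a subunit of complex I with 1 such copy over its whole coding sequence, had 1 read in all 12 libraries together. Atp5l (8 copies) was at 2.74, Cox7c (3 copies) at 2.67, Ndufb4 (1 copy) at 3.90, Atp5g1 (1 copy) at 1.97 and Atp5g2 (2 copies) at 1.49 CPM per kb. These levels also depend on the exon union, which was 4912 bp for Atp5g1 against 731 bp for Atp5g2 and 724 bp for Atp5g3. Ndufb2, the 1 of the 53 under 10 CPM per kb, had an exon union of 4375 bp. Levels and differences of members with such a copy are uncertain. They include Atp5l, Atp5g2, Cox7c and Ndufb4, which were not called higher in WT-labelled iTreg, and Uqcr10, Cox5b, Cox7b, Ndufb11, Atp5c1 and Atp5k, which were. Among the 58 tested members without such a copy, 50 were higher in iTreg with the WT label and 49 with the KO label, with medians of 0.82 and 0.73.

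Comparing KO with WT label in nTreg set natural Treg of animals labelled Hrd1 flox/flox beside those of animals labelled Hrd1 +/flox. No tested member passed the test, beside 2.18% of all genes that were higher and 0.341% that were lower (edgeR; 10 members had an unadjusted p under 0.05). The members lay slightly above the middle of all genes: 69 of 78 had a positive log2 fold change, and the median was 0.15 (1.11-fold), against 0.01 for all genes. By library, 21 of 78 lay higher in each of the 3 KO-labelled libraries than in each of the 3 WT-labelled ones and 1 (Atp5sl) lower, beside 15.7% and 14.1% of all genes. The medians were 0.21 for complex I, 0.18 for complex II, 0.11 for complex III, 0.15 for complex IV and 0.11 for complex V. Within complex I the 27 accessory subunits had a median of 0.26 and the 7 core subunits 0.07. Summed CPM of all members was 1.10-fold that of the WT label.

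With the replicate number as a block, 3 members passed in nTreg, all higher, beside 5.36% of all genes that were higher and 3.64% that were lower. Uqcrq, a small subunit of complex III (chromosome 11, 53427922 to 53430831, minus strand, mm10), was at 36.9, 33.2 and 29.7 CPM in WT-labelled libraries and 55.7, 55.6 and 42.2 CPM in KO-labelled ones. All KO-labelled libraries lay above all WT-labelled ones (log2 fold change 0.63, SE 0.21, adjusted p = 0.19; 0.0083 with the block, edgeR). Ndufb9, an accessory subunit of complex I, was at 44.4, 49.9 and 38.0 CPM and 65.9, 61.4 and 51.2 CPM, also without overlap (0.43, SE 0.15, adjusted p = 0.23; 0.020 with the block, edgeR). Cox7b, a small subunit of complex IV, was at 60.1, 63.8 and 49.4 CPM and 94.2, 86.7 and 62.7 CPM; the lowest KO-labelled library fell below the highest WT-labelled one, both of different number (0.49, SE 0.18, adjusted p = 0.23; 0.034 with the block, edgeR). All 3 also passed with the block and the correction for length and GC (4.47% of all genes higher, 4.43% lower), but in that fit the median of the members was 0.03, against -0.03 for all genes. Other members with the highest or lowest value of their complex did not pass either way: Ndufc1 (0.50, SE 0.20, adjusted p = 0.30), Sdhc (0.28, SE 0.10, adjusted p = 0.21), Cox6b2 (0.96, SE 0.48, adjusted p = 0.41), Atp5g1 (0.35, SE 0.24, adjusted p = 0.57) and Atp5l (-0.58, SE 0.46, adjusted p = 0.63). The median was positive within each pair of libraries of the same number, at 0.20, 0.12 and 0.13 for numbers 1, 2 and 3.

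Myeloid markers summed to 35.3 to 129 CPM in WT-labelled and 32.0 to 272 CPM in KO-labelled nTreg, highest in the libraries numbered 2 of both labels. Most of these 2 sums was Csf1r, at 95.2 CPM with the WT and 195 CPM with the KO label. Emr1 and Cd14 were also highest there with both labels, Cd68 with the KO label alone and Itgam with the WT label alone. Lyz2 was highest in the libraries numbered 1, at 5.17 and 14.0 CPM, against 1.42 and 3.15 CPM in those numbered 2. Without both nTreg libraries numbered 2 the median of the members was 0.16, and without both numbered 1, the pair with the largest difference, it was 0.12, with 0 members called in either fit.

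In iTreg, KO against WT label gave no member past the test, beside 0.166% of all genes that were higher and 0.0166% that were lower (edgeR; 1 member, Cox7a2l, had an unadjusted p under 0.05), and none with the replicate number as a block (0.673% and 0.274% of all genes). The median was 0.09 and that of all genes -0.01. This rested on iTreg KO replicate 2: the medians within the pairs of libraries numbered 1, 2 and 3 were 0.02, 0.36 and -0.12, and without that library the median over the members was -0.05. The pair numbered 2 was not alike in Xist, which was at 2026 CPM in the WT-labelled library and at 0 in the KO-labelled one. Without the 3 libraries with Xist reads, which keeps iTreg KO replicate 2, the median was 0.10. Uqcrq was at 93.9, 105.2 and 80.8 CPM in WT-labelled libraries and 109.9, 167.1 and 90.9 CPM in KO-labelled ones, with overlap (log2 fold change 0.39, SE 0.20, adjusted p = 0.71, edgeR). Ndufb9 was at 87.8, 91.2 and 77.2 CPM and 86.2, 106.3 and 73.2 CPM, and Cox7b at 131.3, 128.5 and 128.3 CPM and 137.7, 183.6 and 120.5 CPM, in both genes with overlap in both directions. Cox7a2l was the 1 tested member whose libraries were apart, at 129.8, 113.7 and 133.9 CPM in WT-labelled libraries and 151.6, 147.9 and 145.0 CPM in KO-labelled ones (0.24, SE 0.10, adjusted p = 0.65, edgeR). That made 1 tested member higher and 0 lower by library, beside 4.66% and 4.93% of all genes. The members with the highest and lowest values were Atp5g1 (0.40, SE 0.23, adjusted p = 0.76) and Cox6b2 (-0.57, SE 0.42, adjusted p = 0.82).

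**Figure D5:**
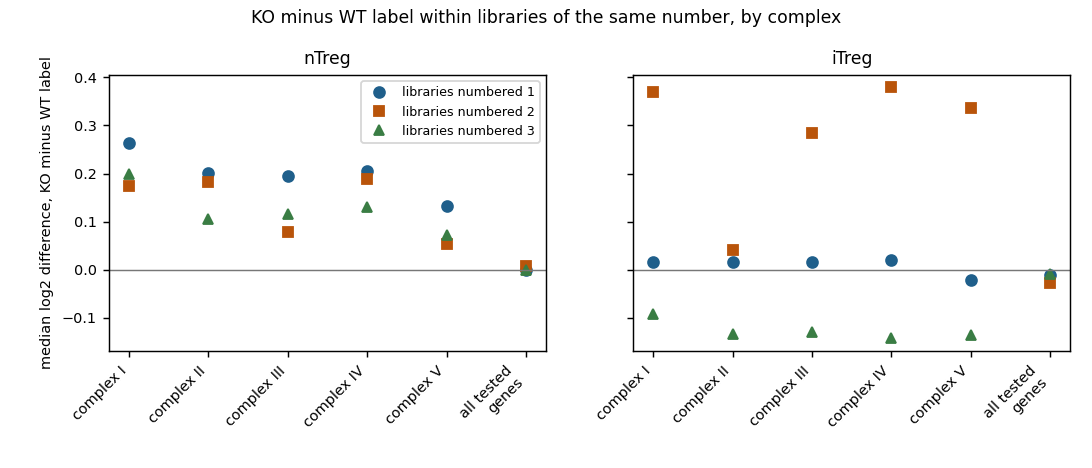
Median log2 difference of KO minus WT label within libraries of the same number (markers) for the tested members of each complex and for all genes tested, in nTreg (left) and iTreg (right). All nTreg medians of the 5 complexes are above 0, and in iTreg the libraries numbered 2 lie between 0.28 and 0.38 except for complex II (0.04), those numbered 1 between -0.02 and 0.02 and those numbered 3 below 0.

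The KO effect in iTreg less that in nTreg is also the difference of the iTreg to nTreg change between labels. No member passed, beside 0.0166% of all genes that were higher and 0.274% that were lower (edgeR; 2 members, Cox6b2 and Sdhc, had an unadjusted p under 0.05). The median was -0.05, close to -0.03 for all genes, and -0.22 without iTreg KO replicate 2. Cox6b2 was at -1.53 (SE 0.63, adjusted p = 0.60), Sdhc at -0.31 (SE 0.14, adjusted p = 0.64) and Ndufc1 at -0.55 (SE 0.28, adjusted p = 0.74). These comparisons share libraries, so the values above are given side by side and not as separate evidence.

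Genes around the respiratory chain were described from lists, with counts by the same test, to be read beside 34.8% of all genes higher and 30.4% lower in iTreg with the WT label and 32.1% and 29.8% with the KO label. The 5 genes of subunits or an inhibitor that the symbol rule did not take (Cyc1, which is cytochrome c1, the acyl carrier Ndufab1, Usmg5 and 2010107E04Rik of ATP synthase, and the ATP synthase inhibitor Atpif1) were all higher in iTreg with either label, with medians of 1.18 and 1.0. Of 18 enzymes of the TCA cycle and pyruvate entry, 14 were higher and 1 lower with either label, with medians of 0.51 and 0.52. Pcx, pyruvate carboxylase, was higher by 5.08, from 4.23 to 143 CPM (WT label). Of 14 genes of coenzyme Q synthesis and cytochrome c, 6 were higher and 1 lower with either label, a share of higher genes near that of all genes, with medians of 0.34 and 0.26. Those with the smallest p with the WT label were Coq7 (2.0), Pdss1 (1.49) and Coq4 (1.75). Of 32 assembly factors, 9 were higher and 1 lower with the WT label and 10 and 1 with the KO label, with medians of 0.17 and 0.16; the share of higher genes was close to that of all genes. Cox17, the copper chaperone of complex IV, was higher by 2.45. Of 16 genes of mitochondrial transcription and biogenesis, 3 were higher and 4 lower with the WT label and 2 and 2 with the KO label. Myc was higher by 1.22 and Esrra and Ppargc1b lower by -0.78 and -1.31 in WT-labelled iTreg, while Tfam, which packages mitochondrial DNA, had a log2 fold change of 0.11 (adjusted p = 0.27, edgeR). Of 87 cytosolic ribosomal protein symbols, another group of short abundant transcripts (the symbol rule also takes some kinases), 44 were higher and 8 lower with the WT label and 41 and 5 with the KO label, with medians of 0.41 and 0.35. Between KO and WT label, 1 ribosomal symbol was higher in nTreg, beside 2.18% of all genes, and no gene of these lists passed otherwise. With the replicate block, 1 ribosomal symbol was higher in iTreg, beside 0.673% of all genes. In nTreg 13 ribosomal symbols and 2 genes of the biogenesis list were higher with the block, beside 5.36% of all genes. The 2 were Myc (log2 fold change 0.43, adjusted p = 0.16; 0.030 with the block, edgeR) and Tfb1m, a methylase of mitochondrial ribosomal RNA (0.65, adjusted p = 0.22; 0.027 with the block, edgeR).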

How the data were processed

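The members and lists described here were chosen with earlier results of these data known. The authors deposited 1 file of raw read counts per gene symbol for each of the 12 libraries; cutadapt 1.13, STAR, HTSeq 0.6.1p1, DESeq2 and the build mm10 are named in the submitters' processing notes, without their roles, and strand and the handling of reads that match several places are not given in the sources used here. Total counts of 6763458 to 15462894 per library limit precision for members with few reads.

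Genes were kept by edgeR's filterByExpr (minimum count 10, minimum total 15) and scaled by TMM. A quasi-likelihood fit over all 4 groups (edgeR 4.0.16, R 4.3.3, 8 residual degrees of freedom) gave 5 comparisons, each with Benjamini-Hochberg adjustment over 12038 genes and a threshold of 0.05. The code was tested on simulated data. Exon lengths came from an annotation of the same build, near-identical copies from blastn 2.17.0 at 95% identity, and promoters from a RefSeq table.

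Named with values were members that passed by smallest p, the highest and lowest of each complex, core members and tissue-restricted paralogs, and of each list the genes with the smallest p; others were named after their values were seen, and the members carried through the alternatives were restricted after values were seen. The replicate number was checked for pairing: same-numbered WT and KO libraries deviated together (correlations of 0.438 to 0.572 in nTreg and 0.307 to 0.629 in iTreg), so the replicate block is given for the KO comparisons, while nTreg and iTreg of the same number did not (-0.054 to 0.095). Alternatives were other scalings and filters, DESeq2 1.42.0, limma 3.58.1 voom, the block, a length and GC correction (spline of 4 degrees of freedom), thinning, only the libraries compared, and leaving out libraries. The alternatives with the block also covered iTreg against nTreg, where the numbers gave no basis for it. No library was identical to another. Some single genes of the module and lists are not reported here by name.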

Additional observations from a re-analysis of the deposited data

How the results depend on the processing

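Over all alternatives, 357 of the values that answer a comparison kept their direction and side of the threshold or stayed within 1.5 times of the count or within the replicate spread, and 24 moved. The number of members called higher with the KO label in nTreg was 0, but 3 with the replicate block, beside 5.36% of all genes. It was 3 with the block and the length and GC correction, beside 4.47% of all genes. It was 4 with only the libraries compared, 5 with limma voom and 0 to 1 without single libraries (1 without iTreg KO replicate 2). Where no share of all genes in the same fit is given, here and below, a count is not read as a result about the members. The median of the members in nTreg was 0.029 with the block and the length and GC correction, and 0.08 to 0.21 without single libraries. In iTreg it was -0.053 to 0.18 without single libraries, and for the difference of the KO effects -0.22 to 0.027. For iTreg against nTreg with the WT label, 59 to 69 members were higher without single libraries, with medians of 0.79 to 0.87, and 61 to 67 with the KO label, with medians of 0.60 to 0.86. The count called lower with the WT label was 2 with RLE size factors, DESeq2, voom, the replicate block and thinned libraries, 5 with the block and the length and GC correction, 0 to 1 without single libraries, and 0 without the 3 libraries with Xist reads or both nTreg libraries numbered 1; with the KO label it was 1 with the block and the length and GC correction. That correction gave medians of 0.49 and 0.46, and turned the sign of Ndufa13 (-0.15), Ndufa3 (-0.015), Ndufa6 (-0.045), Ndufb10 (-0.042), Uqcrc1 (-0.052), Atp5g2 (-0.39), Ndufs7 (-0.061) and Sdha (-0.054) with the WT label and of Ndufa6 (-0.19) and Ndufa13 (-0.062) with the KO label. The cause was not tested. Fits without the Xist libraries, both nTreg libraries numbered 2 or both numbered 1 were chosen after seeing the data; without the Xist libraries 57 (WT label) and 60 (KO label) members were higher. The difference of the KO effects was not run with only the libraries compared, since it uses all 4 groups. Low read numbers limit Cox7a1, Cox6b2, Cox4i2 and Cox6a2.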
